A study of Bubalus bubalis with 8 samples.

Results

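The 6 cytokine genes followed here were the interleukins IL1A, IL1B, IL6 and IL10, the interleukin-1 receptor antagonist IL1RN, and tumour necrosis factor TNF. They were taken as every probe carrying one of those gene names on a bovine oligonucleotide array, which gave 16 of the 43653 probes, for 6 of 24839 gene names, (2 for IL1A, 4 for IL1B, 3 for IL1RN, 3 for IL6, 2 for IL10 and 2 for TNF). The RNA came from mammary epithelial cells (MECs) that had been grown out of mammary gland tissue of 1 riverine buffalo and were used at passage 10. Cultures were kept at 37 °C, exposed to 42 °C for 1 h and returned to 37 °C. They were collected after 30 min and after 2, 4, 8, 12, 16 and 24 h of recovery, while the culture called CTR was not heated. Each of the 8 conditions was measured on 1 array, so no difference between arrays could be set against replicates and none is given a p-value. The CTR, 8 h, 12 h and 24 h arrays lay on 1 slide and the 30 min, 2 h, 4 h and 16 h arrays on the other, so that at the latter times an effect of the slide and one of heating cannot be told apart when CTR is the reference. Buffalo RNA was read here with probes designed on cattle sequence.

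IL-1α and IL-1β are early inflammatory ligands that act through the same receptor, and the antagonist encoded by IL1RN occupies that receptor without signalling. TNF is another early ligand, IL-6 induces acute phase proteins, and IL-10 restrains the production of the others. Macrophages and monocytes are the best known sources of these cytokines, and in the udder mammary epithelial cells also make several of them in response to bacteria. Their mRNAs are short-lived, in part through AU-rich sequences near the 3′ end that bind decay factors such as tristetraprolin.

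The probe sequences showed which transcript each label stood for. Positions are those printed in the array files, on the cattle build Btau_3.1. The IL1A probes lay on chromosome 11 (chr11:48187738-48187797 and chr11:48188704-48188763, minus strand), as did those of IL1B (from chr11:48249271-48249330 to chr11:48250103-48250162, minus strand) and IL1RN (from chr11:48540769-48541935 to chr11:48543380-48543439, plus strand). The first IL1RN position spans 1167 bases for a probe of 60, so that the probe bridges at least 1 intron. The IL10 probes lay at chr16:3568292-3568351 and chr16:3568442-3568501, and the TNF probes at chr23:27531317-27531376 and chr23:27532093-27532152, all on the minus strand. For IL6, A_73_P035016 at chr4:32760426-32760485 and A_73_107706 at chr4:32760745-32760804 carried 1 accession, while A_73_P048171, also labelled IL6, carried another and was placed at chr8:24746995-24747054. Of its bases, 51 of the 57 that could be laid side by side were identical to the probe for interferon beta 3 (IFNB3, chr8:24491118-24491177), and 52 of 60 were identical to a probe described as similar to interferon beta-2 (chr8:24480258-24480317). The next best probe on the array shared 21 of 31. Capitals mark the bases at which the IL6-labelled and IFNB3 probes differ, and the chromosome 4 probe for IL6 is shown beside them because at no placement with at least 30 overlapping bases did more of them match the IL6-labelled probe than differ:
IL6 A_73_P048171: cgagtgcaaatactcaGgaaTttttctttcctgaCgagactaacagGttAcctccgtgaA
IFNB3 A_73_P030376: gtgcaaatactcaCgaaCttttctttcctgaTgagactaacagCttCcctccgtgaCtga
IL6 A_73_P035016: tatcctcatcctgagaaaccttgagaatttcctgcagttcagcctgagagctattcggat

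A pair of the IL1B probes is nearly the same sequence moved by a few bases, with 52 of 53 overlapping bases identical (capitals). Their values are therefore not independent measurements:
IL1B A_73_P108091: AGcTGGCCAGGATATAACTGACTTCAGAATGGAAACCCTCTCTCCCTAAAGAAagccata
IL1B A_73_P111451: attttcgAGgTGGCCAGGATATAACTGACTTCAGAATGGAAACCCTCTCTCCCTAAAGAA

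Because of the known role of AU-rich elements in these mRNAs, the probes were searched for the pentamer ATTTA on the strand listed. It was held by 2 of the 16 probes and by 7.45% of all probes on the array. The IL10 probe holds 2 copies, of which the first is shown. The stretches around it, with ATTTA in capitals, were:
IL1B A_73_P040131: atagcatagcATTTAtgaataggga
IL10 A_73_109074: cccctagagtATTTAttacctctga

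Before the results, some properties of the arrays bear on every value. A level is the log2 intensity of a probe minus the 75th percentile of its array, and a probe counted as detected where the scanner software marked it well above background. The lowest level marked so ranged from -1.95 on the 2 h array to 0.24 on the 24 h array, and 53.5% of spots on CTR shared that array's lowest intensity. On the 30 min array the scanner intensities followed the deposited log2 values in array rows below 200 (Pearson r = 0.98 over 2743 bright probes), less so in rows from 200 to below 340 (r = 0.23 over 1920 probes) and not in the rows from 340 on (r = -0.01 over 3235 probes), with these limits set by eye after the data were seen. The 30 min levels were therefore taken from the deposited log2 values, placed on the scale of the other 7 arrays, and called detected from 0.24 upwards. On CTR the probes in rows 216 to 330 and columns 30 to 59 were dark, with bright probes far below their level on other arrays. None of the 16 probes lay in that region. The closest were A_73_P040131 of IL1B, 2 columns outside it with a local median of -0.28 log2 units against the other arrays, and A_73_P108091 of IL1B, 5 rows outside it with a local median of -0.82. Keratins KRT5, KRT7, KRT8, KRT14 and KRT19 and the adhesion molecules CDH1 and EPCAM, which mark epithelium, were detected on all 8 arrays. KRT18, the remaining gene of that marker list, was detected at 2 h and 16 h only. In or beside the dark region lie 2 of its 3 probes, which bears on CTR alone. The other, A_73_P097441, was undetected in CTR too (-2.51).

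**Figure D1:**
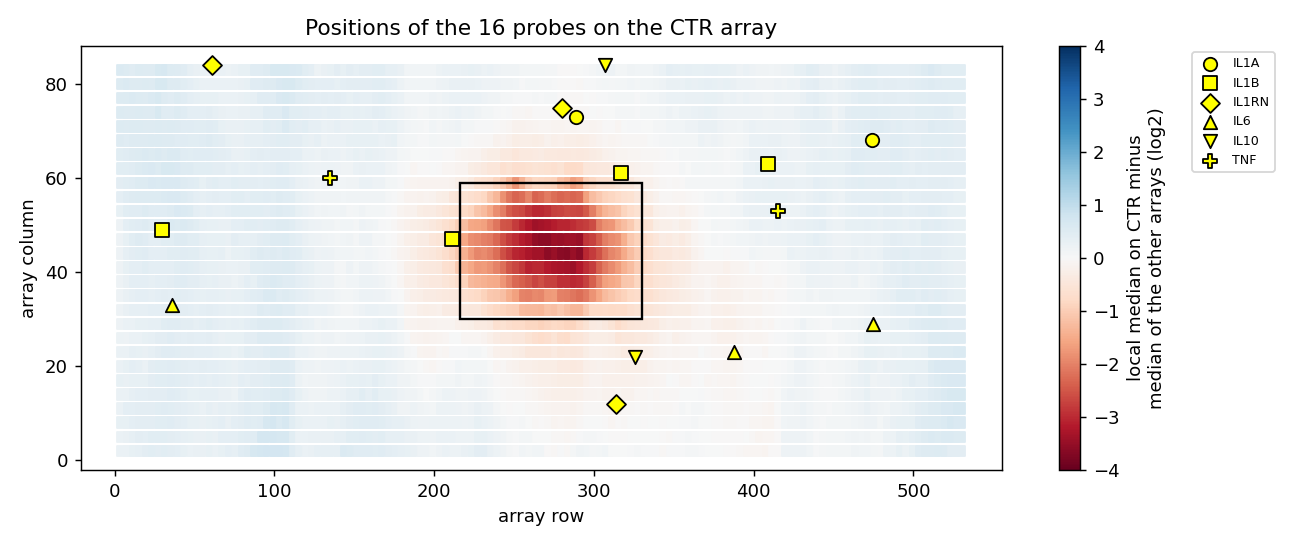
Positions of the 16 probes (yellow markers, by gene) on the CTR array, with array row on the x axis and array column on the y axis. Colour gives the median, over bright probes within 10 spots, of the CTR level minus the median of the other arrays (log2 units, 30 min left out), and the box encloses rows 216 to 330 and columns 30 to 59, in which no probe of the 6 genes lies.

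The cytokine mRNAs were seen at 30 min and 2 h and were mostly below detection on the other arrays. Of the 16 probes, 1 was detected in CTR, 13 at 30 min, 16 at 2 h and 4 at 4 h, and of the later arrays 2 were detected at 12 h and 1 on each of the others. Over all probes the share detected varied far less, from 23.2% at 24 h to 40.2% at 2 h. The array of 2 h had the lowest detection limit as well as the most detected probes. The single probe seen throughout was A_73_101356 of IL1RN. In all, 11 of the 16 probes were detected at 2 h but neither in CTR nor on any array from 4 h to 24 h, a pattern held by 4.59% of all probes.

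**Figure D2:**
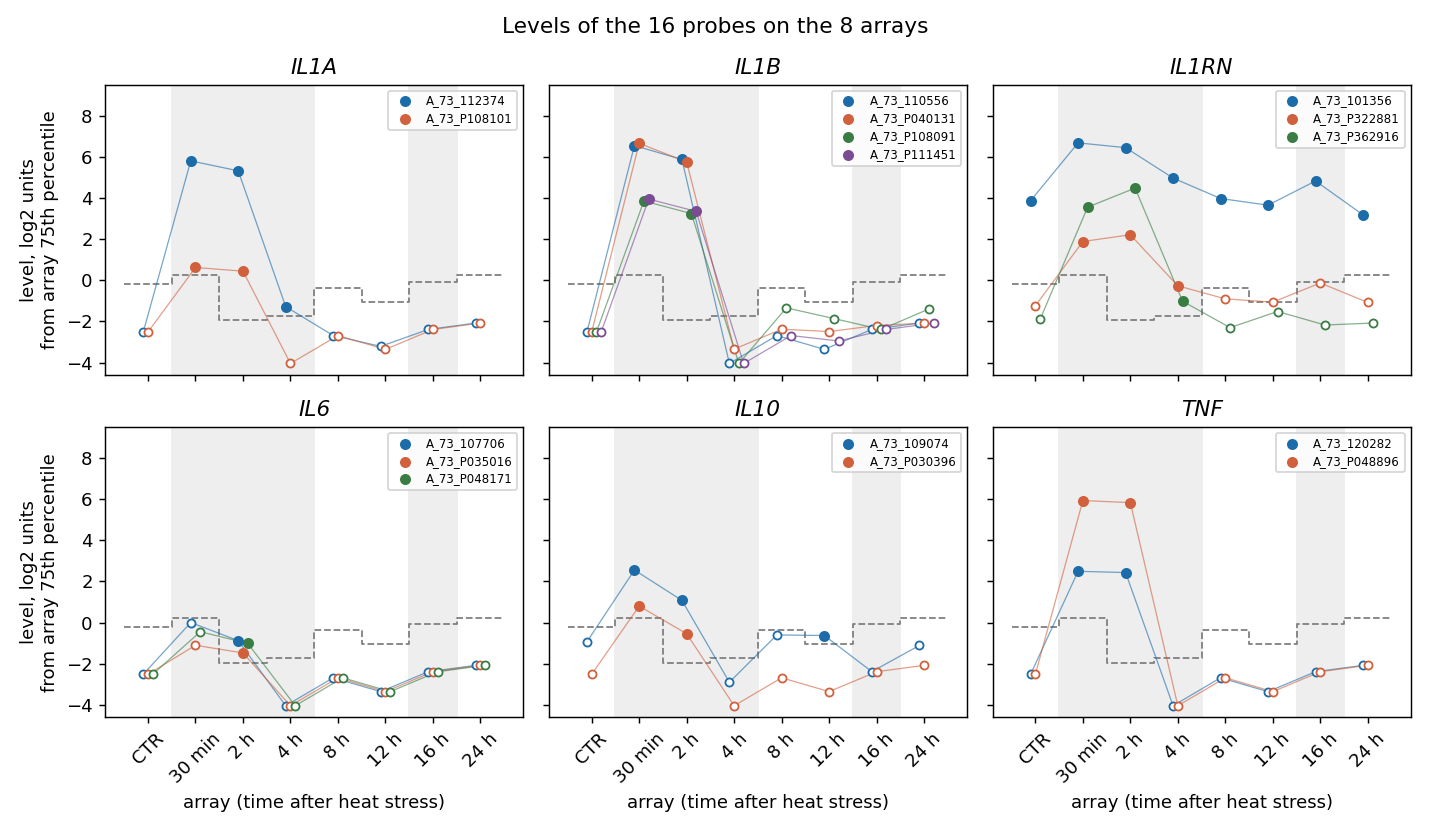
Level of each probe (y axis, log2 units from the 75th percentile of the array) on the 8 arrays (x axis), a panel per gene and a colour per probe. Filled points were detected and open points were not, the dashed line is the detection limit of each array, and grey bands mark the slide of 30 min, 2 h, 4 h and 16 h. IL1A A_73_112374 and the probes of IL1B and TNF stand far above the limit at 30 min and 2 h only, and IL1RN A_73_101356 is above it on every array.

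Among the agonists of the IL-1 receptor, IL1B gave the highest bounds. Its probe A_73_110556 had levels of 6.55 at 30 min and 5.88 at 2 h. It was undetected in CTR (-2.51) and after 4, 8, 12, 16 and 24 h (-4.04, -2.68, -3.36, -2.39 and -2.08). In intensity this was 19220 at 2 h against 37.2 in CTR and 21.5 at 4 h, both the lowest values on their arrays. Both early arrays were high and the others did not overlap them. Where a probe was not detected, its level was replaced by the detection limit of that array, and the fold is then a lower bound. Against CTR the probe was at least 107-fold higher at 30 min and at least 67.3-fold higher at 2 h. A_73_P040131, close to the dark region of CTR, was at least 116-fold and 61.9-fold higher, and the overlapping pair A_73_P108091 and A_73_P111451 at least 16.6-fold and 17.7-fold at 30 min and 10.9-fold and 11.7-fold at 2 h. All 4 probes were lower at 2 h than at 30 min, by 0.60 to 0.91 log2 units. The error of such a difference, from probes spotted several times on an array and with the spread of CTR standing in for 30 min, was 0.61 log2 units, so these declines were close to the spread between spots.

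IL1A moved in the same way. A_73_112374 had levels of 5.81 at 30 min, 5.32 at 2 h and -1.28 at 4 h, where it was still detected. It was undetected in CTR (-2.51) and after 8, 12, 16 and 24 h (-2.68, -3.21, -2.39 and -2.08). It was at least 64.2-fold above CTR at 30 min and at least 45.9-fold at 2 h. Because it was detected at 4 h, its decline on the same slide could be measured without a bound, and the level at 2 h was 97.3-fold that at 4 h. The other probe, A_73_P108101, reached 0.62 at 30 min and 0.44 at 2 h, so close to the CTR limit of -0.20 that its bounds were only 1.77-fold and 1.56-fold. IL1A thus passed 3-fold with 1 of 2 probes at both times.

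TNF was as high at 2 h as at 30 min. A_73_P048896 had levels of 5.93 at 30 min and 5.83 at 2 h and was undetected in CTR (-2.51) and after 4, 8, 12, 16 and 24 h (-4.04, -2.68, -3.36, -2.39 and -2.08). It was at least 70.0-fold above CTR at 30 min and at least 65.3-fold at 2 h. A_73_120282, whose probe is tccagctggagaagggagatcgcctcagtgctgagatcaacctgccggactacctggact, had levels of 2.49 and 2.43 on the same arrays and was at least 6.45-fold and 6.19-fold above CTR. The difference between 30 min and 2 h was 0.10 and 0.06 log2 units for the probes, below the spread between spots. At 16 h the neighbourhood of A_73_P048896 was dark, with a local median of -1.17, so that its undetected value there falls in an area of low signal.

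The receptor antagonist was the only one of the 6 genes with a measurable level in CTR. A_73_101356 of IL1RN had a level of 3.87 in CTR, of 6.68 at 30 min, and of 6.45, 4.97, 3.98, 3.65, 4.83 and 3.18 after 2, 4, 8, 12, 16 and 24 h. It was highest on the 30 min and 2 h arrays, and the other arrays of that slide also exceeded every array of the CTR slide. The change from CTR was 2.81 ± 0.77 log2 units at 30 min (7.01-fold) and 2.58 ± 0.61 at 2 h (5.97-fold), the error being the spot error of a difference. It was 1.10 ± 0.61 at 4 h and 0.96 ± 0.72 at 16 h. On the CTR slide it was 0.10 ± 0.59, -0.22 ± 0.60 and -0.69 ± 0.63 after 8, 12 and 24 h. With arrays centred on the median the change at 4 h was 2.19, past 3-fold. A_73_P362916 was undetected in CTR at -1.90 and reached 3.56 and 4.48 on the early arrays and -1.02 at 4 h, at least 13.5-fold and 25.6-fold above CTR at the first 2 times. The probe that bridges the intron, A_73_P322881 (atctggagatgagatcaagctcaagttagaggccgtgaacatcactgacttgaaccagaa), lay at -1.24 in CTR without detection, at 1.89 and 2.22 on the early arrays and at -0.27 on that of 4 h, at least 4.24-fold and 5.32-fold above CTR. The level at 30 min minus that at 2 h was 0.23 log2 units for A_73_101356, -0.33 for A_73_P322881 and -0.93 for A_73_P362916, so that the 3 probes disagreed on which of the early arrays was higher and the last alone exceeded the spot error.

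IL10 was low and short-lived. A_73_109074 had levels of 2.55 at 30 min and 1.08 at 2 h, was detected once more at 12 h (-0.63), and was undetected in CTR (-0.93) and after 4, 8, 16 and 24 h (-2.90, -0.60, -2.38 and -1.11). It was at least 6.73-fold above CTR at 30 min and at least 2.42-fold at 2 h, so that it passed 3-fold at the first time only. A_73_P030396 was at 0.80 at 30 min and -0.54 at 2 h, which gave a bound of 2.00-fold and none respectively. Both probes fell from 30 min to 2 h, by 1.47 and 1.34 log2 units, the largest declines between those arrays among the 13 probes detected on both.

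IL6 stood near the detection limit throughout. The chromosome 4 probe A_73_107706 had levels of -0.88 at 2 h, where it was detected, and 0.00 at 30 min. In CTR it lay at -2.51, and after 4, 8, 12, 16 and 24 h at -4.04, -2.68, -3.36, -2.39 and -2.08. A_73_P035016 was at -1.48 at 2 h and -1.10 at 30 min. No bound against CTR could be given for either at 2 h, since the CTR limit of -0.20 lay above these levels. Against 4 h on the same slide, where the limit was -1.73, the probes were at least 1.80-fold and 1.19-fold higher at 2 h. Had the limit of the 2 h array (-1.95) been applied at 30 min, all 16 probes would have counted as detected there, with A_73_107706 at least 3.32-fold and A_73_P035016 at least 1.54-fold above 4 h. The data thus hold a signal for IL6 at 2 h, of a size that cannot be stated against CTR.

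The IL6-labelled probe on chromosome 8 was detected at 2 h (-1.01) and by the scanner mark at 30 min, where it lay in the rows in which scanner and deposited values follow each other. The IFNB3 probe had the same marks, with levels of -0.20 at 30 min and -0.23 at 2 h, and was at least 2.82-fold higher at 2 h than at 4 h against at least 1.64-fold for the IL6-labelled probe. The probe described as similar to interferon beta-2 was detected on no array, nor were the 12 probes for 6 other type I interferon genes. With a sequence nearest to interferon beta, A_73_P048171 was not counted as a measurement of IL6 in the paragraph above, though it remains among the 16 probes.

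**Figure D3:**
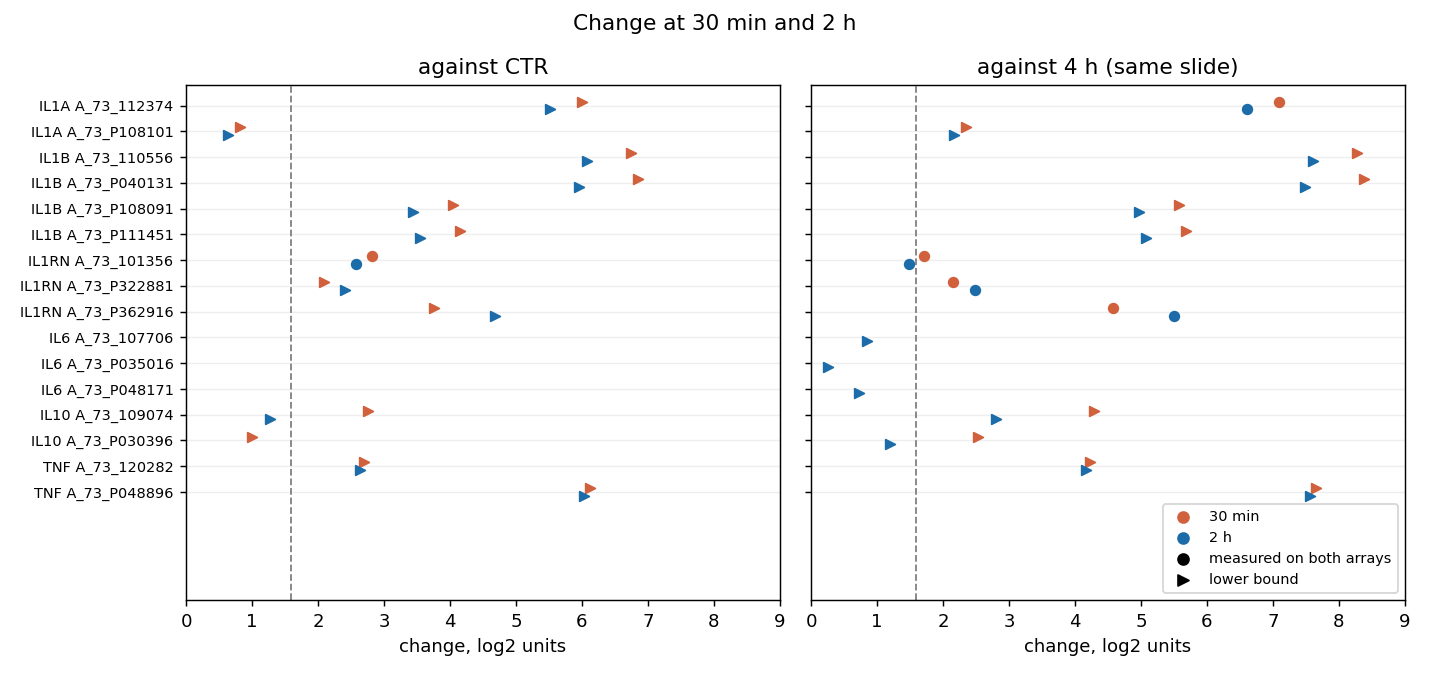
Change of each of the 16 probes at 30 min (orange) and 2 h (blue), in log2 units on the x axis, against CTR in the left panel and against 4 h, on the same slide, in the right panel. Circles are changes measured on both arrays, triangles are lower bounds, a missing marker means that no bound above 0 exists, and the dashed line is 3-fold. IL1A A_73_112374, 2 IL1B probes and TNF A_73_P048896 have the largest values in both panels.

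Counted by probe, 11 of the 13 that could be compared with CTR at 30 min were at least 3-fold higher and none lower. The same was seen for 9.11% of all 13083 probes compared at that time, and 4.32% were at least 3-fold lower. At 2 h it was 10 of 16 probes and none lower, against 6.14% higher and 7.20% lower of 17839. The 11 probes at 30 min belonged to 5 genes and the 10 at 2 h to 4, IL10 being the gene that no longer passed. At 4 h none of 4 probes passed in either direction (4.13% of all probes were higher and 4.84% lower), and after 8, 12, 16 and 24 h none of the 1 or 2 that could be compared (3.16%, 2.34%, 7.31% and 2.84% of all probes were higher, and 0.155%, 0.42%, 4.25% and 0.571% lower). As 15 of the 16 probes were undetected in CTR, none of these could have been counted as lower, and they were compared only where they were detected on the other array. The lack of lower probes is therefore no result, and the counts of higher ones describe the probes that passed this filter, not all 16.

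The 30 min, 2 h, 4 h and 16 h arrays allowed the decline to be read within 1 slide. The level at 2 h was at least 194-fold that at 4 h for IL1B A_73_110556, 179-fold for A_73_P040131 and 189-fold for TNF A_73_P048896, larger than the bounds against CTR because the 4 h array detected lower levels. IL1RN fell as well. A_73_101356 was 2.79-fold, A_73_P322881 5.59-fold and A_73_P362916 45.3-fold higher at 2 h than at 4 h, each of these detected on both arrays. For IL10 the bounds were 7.0-fold and 2.28-fold. Of the 16 probes 11 were at least 3-fold higher at 2 h than at 4 h and none lower, beside 6.07% and 1.78% of all probes. All 16 were detected at 2 h but only 4 at 4 h, and a probe undetected at 4 h could not have been counted as lower. Taking 30 min and 2 h together against 4 h and 16 h, 11 of 13 probes were at least 3-fold higher, from 5 genes, and none lower, beside 6.86% and 2.09% of all probes. IL1A A_73_P108101 and IL10 A_73_P030396, with bounds of 2.70-fold and 2.04-fold, were the 2 that did not pass. The 13 probes were compared because both early arrays detected them. The lack of lower probes therefore says little in either count, and the counts of higher ones describe probes that passed such a filter. Between 30 min and 2 h no probe of the 6 genes differed by 3-fold (0.154% of all probes were higher at 30 min and 0.0969% lower). The likeness of these arrays thus held for nearly all probes compared and is not particular to the 6 genes.

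The genes around these ligands were counted in 6 lists, of receptors and signalling proteins, of processing and mRNA decay factors, and of other cytokines. Over the 87 genes and 164 probes of these lists, 22 of 58 probes compared at 30 min (9.11% of all probes) and 20 of 81 at 2 h (6.14% of all) were at least 3-fold above CTR. Here too, a probe undetected in CTR was compared only where it was detected on the heated array. Leaving out probes in the dark region of CTR or within 5 spots of it, where a low CTR value raises every fold, gave 15 of 49 and 12 of 70. At 4 h the counts were 2 of 55 with those probes, near the 4.13% of all probes, and 0 of 44 without them.

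Among the IL-1 receptors and signalling proteins, 1 of 11 probes passed at 2 h, a share near the 6.14% of all probes. It was that of IRAK2, a kinase of the receptor complex, at least 10.6-fold at 30 min and 7.66-fold at 2 h. MYD88, the adaptor of the receptor, was detected on all arrays and was 0.74 log2 units higher at 2 h, and IRAK1 0.70 lower. IL1R1, the signalling receptor, was detected at 4 h alone, with A_73_121114, but its 3 probes all lie in or beside the dark region of CTR, so that its lack of signal there says nothing of its level. The decoy receptor IL1R2 was detected at 2 h only. IL18BP and PYCARD were the 2 of 7 probes of the list of IL-1 processing and related ligands that passed, and both lay in the dark region. IL18BP, which binds IL-18, was nevertheless detected at 30 min (5.07) and 2 h (4.98) and near the limit at 4 h (-1.32), a difference within the slide that CTR does not enter. CASP1, which cleaves pro-IL-1β, was at -0.02 at 2 h and below detection in CTR.

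On the TNF side 4 of 17 probes passed at 2 h (6.14% of all probes). The receptor TNFRSF1B was seen at the early times only, like its ligand. A_73_P041401 was at 5.95 at 30 min and 6.04 at 2 h and undetected on the other 6 arrays, and was at least 70.9-fold and 75.5-fold above CTR. The other probe, A_73_P100911, was detected on the same arrays, with bounds of only 1.62-fold and 1.76-fold. TRAF1, an adaptor of TNF receptors that NF-κB induces, was detected on all arrays with A_73_118081, at 1.53 in CTR and at 5.44, 5.05 and 1.22 on the 30 min, 2 h and 4 h arrays, which was 15.0-fold and 11.5-fold above CTR. BIRC3, an inhibitor of apoptosis, was at least 5.61-fold and 3.62-fold higher with A_73_P102586, which lies away from the dark region. Its probes A_73_P298996 and A_73_P377856, also away from it, did not pass. Their bounds were 1.79-fold and 1.83-fold for the former and 1.71-fold and 1.32-fold for the latter. TNFRSF1A, the receptor found on most cells, was detected on all arrays and changed by 0.80 and 0.88 log2 units. TNFAIP6 was the single gene lower at 2 h, with 1 of its 2 detected probes (a change of -2.15 log2 units or beyond), while the other was detected at 2 h alone. The lower probe, A_73_P211647, was at 0.20 in CTR, near the limit there of -0.20, and undetected on every other array.

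Of the IL-6 and IL-10 receptors and their signalling proteins, 3 of 18 probes passed at 2 h (6.14% of all). Away from the dark region these were of IL10RB (A_73_117420, 4.57-fold at 30 min and 4.16-fold at 2 h) and TYK2 (A_73_107438, 4.10-fold and 3.74-fold). The other IL10RB probes, also away from that region, did not pass. A_73_P354376, detected on all arrays, was 1.60-fold and 1.24-fold higher, and A_73_P275916 at least 2.05-fold and 1.62-fold. The receptor subunits IL6R and IL6ST were detected neither in CTR nor at 30 min, IL6R being detected at 2 h and 4 h and IL6ST at 4 h. Among the factors that govern the decay of cytokine mRNA, ZFP36, which encodes tristetraprolin, was at 1.90 in CTR and at 4.76, 4.34 and 2.80 on the 30 min, 2 h and 4 h arrays, a 7.27-fold and 5.45-fold rise, and between 1.92 and 2.52 later. ZC3H12A, which degrades IL6 mRNA, changed by 0.70 and 0.60 log2 units, and ELAVL1, a stabilising factor, by -0.63 and -0.66. Of this list 4 of 13 probes passed at 30 min (9.11% of all) and 3 of 14 at 2 h (6.14%). Away from the dark region it was 2 of 11 and 1 of 12, from ZFP36 and, at 30 min only, ZFP36L2 (3.86-fold). ARID5A, which the paper links to stable IL6 mRNA, lies in or beside that region. It was at least 31.1-fold and 20.2-fold above CTR, and 5.31-fold higher at 2 h than at 4 h on the same slide. Of the 34 other interleukins and cytokines, with 54 probes, none was detected in CTR, so that the 7 probes compared at 30 min and the 14 at 2 h were those detected on these arrays. At each time 7 passed, 5 of them away from the dark region, from IL8, CSF2, IL16 and IL23A there and LTB within it. IL8, the neutrophil chemokine, was at 6.42 at 30 min and 6.81 at 2 h with A_73_P108356 and undetected on the other arrays, at least 98.3-fold and 128-fold above CTR.

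**Figure D4:**
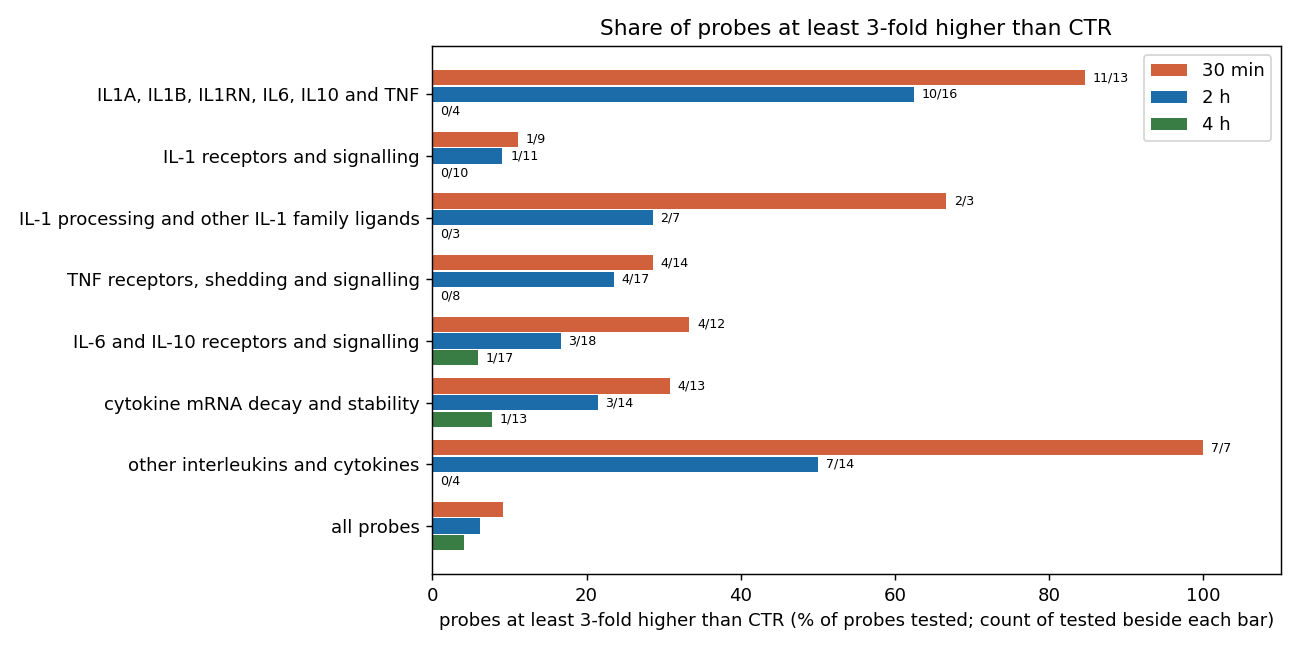
Percentage of the probes compared with CTR that were at least 3-fold higher (x axis) at 30 min, 2 h and 4 h (colours), for the 16 probes, for 6 lists of cytokine signalling genes and for all probes, with the number of probes that passed and were compared beside each bar. Probes undetected in CTR enter only where they were detected at the time shown, and at 4 h no probe of the 6 genes passed.

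Several leukocyte markers were higher on the same arrays as the cytokines, and others were not. Of 15 leukocyte marker genes on the array, 6 were detected in CTR, 11 and 12 on the early arrays and 7 to 9 from 4 h to 24 h. The summed level of their 38 probes, on a linear scale where 1 is the 75th percentile of an array, was 37.6 in CTR, 293 and 163 on the early arrays, and 25.03 to 53.8 from 4 h to 24 h. Of the probes compared, 11 of 19 were at least 3-fold above CTR at 30 min (9.11% of all probes) and 10 of 22 at 2 h (6.14% of all), and 9 of 16 and 8 of 19 away from the dark region. At 2 h 1 probe was at least 3-fold lower (7.20% of all), that of CD4. CD14, the endotoxin co-receptor of monocytes, was at 4.55 at 30 min and 4.11 at 2 h with A_73_116002, at least 26.8-fold and 19.8-fold above CTR and undetected on the other arrays. CD68 (A_73_106271) was at least 10.4-fold and 4.77-fold higher. CSF1R, a receptor found on macrophages, was at least 24.0-fold and 17.7-fold higher with A_73_118762, which was detected again at 4 h and 16 h. The CSF1R probe A_73_P290976 was not detected on any array. PTPRC, which marks all leukocytes, was at least 7.27-fold and 6.74-fold higher with A_73_P476493 and at least 5.66-fold and 4.83-fold with A_73_P072536. Its single probe detected in CTR, A_73_P072546, was 2.71-fold and 2.61-fold higher, with levels of 3.16 and 3.11 on the early arrays that were below the 3.41 at 4 h and 3.37 at 16 h, and A_73_P072541 was not detected on any array. LYZ, or lysozyme, was 1.90-fold and 1.35-fold higher with A_73_P107931, its probe detected in CTR, while A_73_105503, in or beside the dark region, gave at least 91.2-fold and 34.8-fold. CD4 A_73_104193, a marker of helper T cells, was at 3.49 in CTR and at 2.08 and 1.28 on the early arrays. The other CD4 probes were not detected on any array. Of the other T cell genes, CD3E A_73_104727 was at least 5.02-fold and 2.75-fold above CTR and was detected again at 16 h. CD8A A_73_101768 was detected at 30 min (0.34) and 2 h (-0.43) only. CD3D A_73_P049086 was at 1.73 in CTR and at 1.94 and 1.27 on the early arrays. AIF1 was at 1.66 in CTR and at 1.17 and 1.07, and the B cell gene CD79A at 1.01 in CTR and -0.34 at 2 h, being undetected at 30 min. ITGAM and CD163, 2 further macrophage genes, were not detected on any array. On the same arrays the summed level of the 8 epithelial marker genes was 436 at 30 min and 465 at 2 h, against 554 to 1087 on the other 6 arrays. Of 14 epithelial probes compared at 30 min, 4 were at least 3-fold below CTR (4.32% of all probes). At 2 h it was 5 of 18 (7.20% of all). These were of KRT8, and at 2 h of KRT5 too. The 2 higher at each time, of KRT14 and KRT19, lay in or beside the dark region. That of KRT14 (7.55 and 7.64) was the highest in the sums. KRT8 A_73_108833 was at 6.99 in CTR and at 3.29 and 4.37 on the early arrays. It was at 4.15 and 4.71 after 4 and 16 h. Milk protein genes were also higher on the slide of 30 min, 2 h, 4 h and 16 h, with a summed level of 112 to 2762, against 8.76 to 12.9 on the other slide. The part of any of these in the cytokine values was not tested, and more cells of a type or more RNA per cell cannot be told apart in such samples.

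The genes whose time course was most like the mean of the 8 IL1A, IL1B and TNF probes, by Pearson r over the 8 arrays among 1218 named probes with a range of at least 3 log2 units, were CD14, CXCR4, RGS1, FCN1, PNP, GPR183, APOBEC3A, RGCC, CCR1 and OSTF1. All had an r of 0.99956 or more, and on 5 of the 8 arrays both sides of the comparison stood at the detection limit of the array, which sets most of such a value. For CD14 this was A_73_116002, and another CD14 probe was detected on later arrays too. The probes of CXCR4 and CCR1 lay in or beside the dark region of CTR. RGS1, a regulator of G protein signalling of activated lymphocytes, was at 4.93 at 30 min, 4.46 at 2 h and undetected elsewhere, at least 34.9-fold and 25.1-fold above CTR, and at least 72.6-fold higher at 2 h than at 4 h. The probe named FCN1, which the array files describe as ficolin-2, was at 4.93 and 4.28, at least 34.8-fold and 22.2-fold above CTR.

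**Figure D5:**
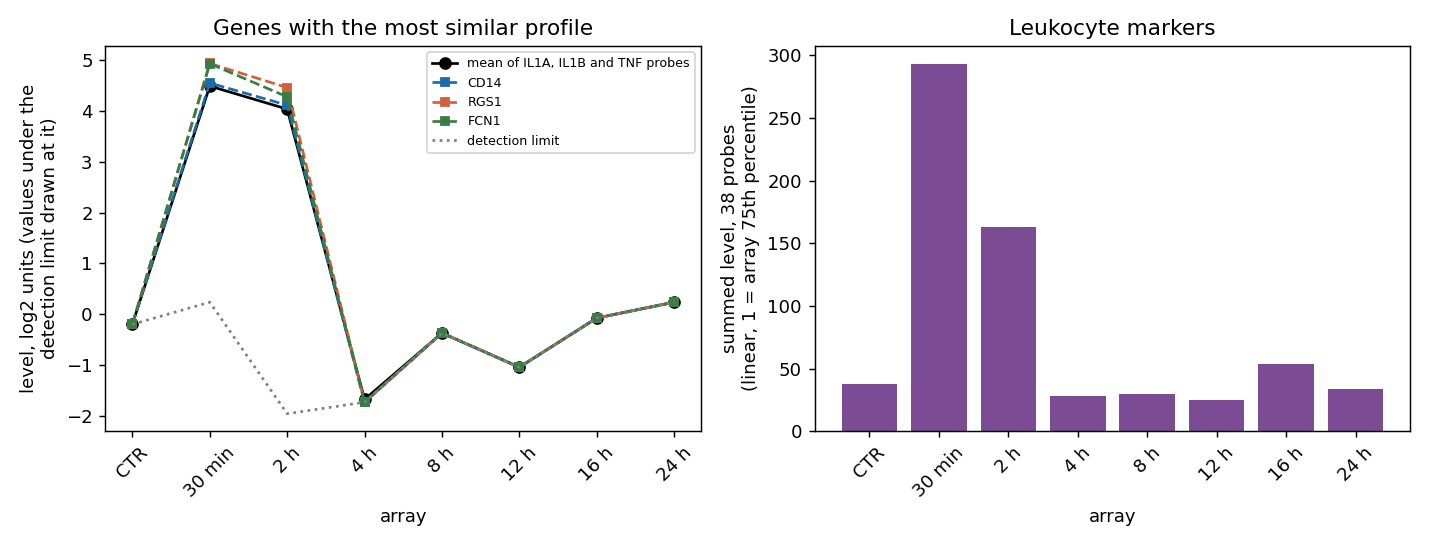
Left, the mean level of the IL1A, IL1B and TNF probes and the levels of CD14 (A_73_116002), RGS1 and FCN1 (y axis, log2 units, with values under the dotted detection limit drawn at it) on the 8 arrays (x axis). Right, summed level of 38 leukocyte marker probes per array (linear, 1 is the 75th percentile of the array), which is 293 at 30 min and 163 at 2 h and at most 53.8 on the other arrays.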

How the data were processed

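RNA of 8 cultures was labelled with 1 dye and hybridised to bovine Agilent arrays, 1 array for each condition. The authors extracted probe intensities with Feature Extraction (9.5.3.1 per the file headers), and the deposited log2 values come from their normalization to the 75th percentile. Scanner intensities of 43653 non-control probes were used here for 7 arrays, as log2 minus the 75th percentile, with outlier spots left out and repeated spots averaged. For 30 min the deposited log2 value was used, plus the probe's median offset between scanner level and deposited value over the other 7 arrays, decided once the arrays had been examined. A probe undetected on 1 array of a pair was set to the higher of its own level and that array's detection limit, and folds are then bounds. Changes of at least 3-fold were counted over all probes. With 1 array per condition the number of arrays limits the precision. Spot errors come from those of 50 probes with several spots that were well above background on an array. These were 16 on CTR and at 24 h, the fewest, and 25 at 2 h, the most. They cover technical spread within an array only. Genes named beyond the 6 came from 6 signalling lists, from the epithelial and leukocyte marker lists, and from the 10 most similar profiles. Those from lists had the largest and smallest changes at 2 h or were key list members. Of the 5 cell type lists, that of milk proteins is given as a sum, and those of fibroblasts and endothelium are not described. The 6 genes and the lists were chosen with earlier results of these data known, and the list members named besides the largest and smallest changes were chosen after their values were seen. The bound calculation was checked on simulated data. Alternatives covered scaling, background correction (normexp, offset 50, limma 3.58.1), the deposited values and detection rules. Protein and promoter sequences were not used here. Python 3.11.15, pandas 2.3.3 and R 4.3.3 were used.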

Additional observations from a re-analysis of the deposited data

How the results depend on the processing

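No paired analysis was possible because each condition has 1 array, all numbered replicate 1. The count of probes of the 6 genes at least 3-fold above CTR (11 at 30 min, 10 at 2 h) became 5 at 30 min with the scanner intensities of that array, which also gave 1 probe lower, 1 at both times when a probe had to be detected on both arrays, and 5 and 4 when counted by gene name. At 4 h, where the count was 0, centring on the median, normexp and a threshold of 2-fold each gave 1 probe higher, and leaving out the detection limits gave 1 lower. The change of IL1RN A_73_101356 at 30 min turned to -2.73 with the scanner intensities, in rows where these do not follow the deposited values. The 11 probes higher at 30 min and 2 h than at 4 h and 16 h became 4 with those intensities. For the signalling lists, centring on the median gave 41 probes higher at 30 min (22 otherwise), 32 at 2 h (20) and 14 at 4 h (2), with 0 lower at 2 h and at 4 h (1 each otherwise). That centring raised every change by 0.95 log2 units at 30 min, 0.70 at 2 h and 1.09 at 4 h. The scanner intensities gave 34 higher and 6 lower at 30 min, and normexp 6 higher and 0 lower at 4 h. Leaving out the 2 probes at the edge of the dark region and taking the 30 min limit from the 2 h array, both chosen after the data were seen, moved no count by over 1.5 times. Normexp could not be run for 30 min, whose deposited values hold no background. Of the single-probe values, 191 moved by less than the spot error, 33 by more and 1 reversed. In 15 of 16 probes CTR gave only a limit, so the true folds are unknown above the bounds.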
